A study of Mus musculus with 6 samples.

Results

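The 7 genes described here, Capn6, Crym, Tmem100, Traf1, Dpf3, Spock2 and Gas1, were listed as markers of the cap mesenchyme of the developing kidney that are not transcription factors. They were taken by symbol from the deposited table and make up 7 of its 27179 entries. Only sorted progenitors were measured, so their role as markers was not tested. The list was chosen by marker role with the RPKM difference between the genotypes in these same libraries already known, with no threshold on it. The fold changes and limma values of the 7 are therefore given as a description from the fit over all genes, and how many of them differ supports nothing by itself. Nephron progenitors were sorted at E16.5 by the green fluorescent protein of the Six2TGC transgene, which also drives Cre recombinase in Six2-expressing cells. Control progenitors carried Six2TGC and mutant progenitors carried Six2TGC with both copies of the miR-17~92 microRNA cluster floxed (miR-17~92fl/fl), so both genotypes carried the transgene and its Cre. No floxed copies are named for the controls and no label gives a strain, so the deletion and background carried with the floxed copies cannot be told apart. Each genotype had 3 libraries of whole-transcriptome RNA, made from cells pooled over 4 embryos. The comparison asks how the transcriptome of nephron progenitors differs when the cluster is removed.

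The cap mesenchyme is the layer of nephron progenitors that covers each tip of the branching ureteric bud. Its cells either renew themselves or are induced to form the renal vesicle, an epithelial body from which the nephron grows. Transcription regulators such as Six2 hold the progenitor state, and the genes described here encode other kinds of protein that such cells make: enzymes and enzyme relatives, a signalling adaptor, a chromatin reader, a matrix proteoglycan and proteins of the cell surface. MicroRNAs lower the output of messenger RNAs mainly by pairing of their seed, bases 2 to 8 of the mature strand, with sites in the 3′ untranslated region (3′ UTR).

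For each microRNA of the deleted cluster 1 mature strand is shown first, because the seeds of these strands define the sites looked for in the 7 genes. Seeds of other mature strands of the cluster were not looked for. The strands shown lie on the plus strand of chromosome 14 and are given 5′ to 3′ from RefSeq (GRCm38.p6), with the seed in capitals. Levels of mature microRNA were not measured.
miR-17-5p: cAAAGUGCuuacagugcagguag
miR-20a-5p: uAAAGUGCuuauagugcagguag
miR-18a-5p: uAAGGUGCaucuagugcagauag
miR-19a-3p: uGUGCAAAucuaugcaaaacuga
miR-19b-3p: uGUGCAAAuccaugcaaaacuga
miR-92a-3p: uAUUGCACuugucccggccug
Both miR-17-5p and miR-20a-5p share 1 seed and both miR-19 strands share another, which leaves 4 seeds among the strands shown.

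When the longest 3′ UTR annotated for a gene was searched, 4 of the 7 genes held at least 1 match of 7 bases to 1 of these seeds, and 0 of the 7 held a match of 8. A match of 7 bases pairs either with bases 2 to 8 (7mer-m8) or with bases 2 to 7 followed by an A (7mer-A1). A match of 8 bases has both. Of 11748 tested genes with an annotated 3′ UTR, 47.5% held a match of 7 or 8 bases and 14.3% held 1 of 8. The 5 matches are printed because they are where these 4 messages could pair with the seeds of the strands shown. Letters are those of the GENCODE vM21 transcript (GRCm38, the same assembly as mm10), 5′ to 3′ on the gene's strand, with the match in capitals.
Tmem100, miR-18a-5p, 7mer-m8, chr11:90036416-90036437, plus strand: taatccaatctaGCACCTTtga
Traf1, miR-18a-5p, 7mer-m8, chr2:34943066-34943087, minus strand: gtccaacacacaGCACCTTcac
Traf1, miR-19a-3p and miR-19b-3p, 7mer-A1, chr2:34942166-34942187, minus strand: atctatgagctcTTGCACAcct
Dpf3, miR-17-5p and miR-20a-5p, 7mer-m8, chr12:83215495-83215516, minus strand: agcgggaacttgGCACTTTtga
Spock2, miR-18a-5p, 7mer-A1, chr10:60133393-60133414, plus strand: ccctggaatggcCACCTTAatc
Capn6, Crym and Gas1 held no match of 7 or 8 bases to these 4 seeds in 3′ UTRs of 1413, 254 and 1382 bases. A seed match of 7 or 8 bases to miR-18a-5p was present in 14.7% of tested genes with a 3′ UTR. The genes with a match did not share a direction: as described next, Tmem100 was higher in mutants, and Traf1, Dpf3 and Spock2 had negative log2 fold changes that did not pass the test. A match describes these letters only, and whether the microRNAs act there was not tested.

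The targeted locus, the marker lists and the depth of the libraries were checked before the 7 genes were read. Depth, worked out from the deposited values, ran from 27602025 to 36134381 reads per library. Mitochondrial ribosomal RNA took 28.77%, 26.96% and 30.35% of this depth in controls and 32.23%, 38.24% and 32.67% in mutants, without overlap. The deposited values are scaled to a depth that includes these reads. The sequencing was paired, and whether a counted read is a single read or a pair is not stated, so every read number here may stand for pairs. Mir17, the first microRNA entry of the cluster, was counted with 31, 26 and 16 reads in the controls and with 2, 0 and 0 reads in the mutants. The entry of its host transcript, Mir17hg, stood higher in mutants, at 183 to 259 RPKM against 33.6 to 52.9 in controls (limma adjusted p 4.93e-05). Of 14 nephron progenitor transcription regulators 13 passed the expression filter, with summed levels of 601 to 706 RPKM (reads scaled to gene length and library depth) in controls and 501 to 620 in mutants. The defining marker Six2 was at 83.5, 69.9 and 104 RPKM in controls and 63.5, 57 and 77 in mutants, so the labelled cell type was present in both genotypes. Across all genes limma called 422 of 13463 tested genes, or 3.13%, at a Benjamini-Hochberg adjusted p of 0.05. Over all tested genes the median log2 fold change was -0.125, and fold changes below are on the log2(RPKM + 0.5) scale, mutant minus control. That median was -0.0125 with depth counted without mitochondrial ribosomal RNA. The pools also differed in sex mix, with Xist at 154, 0.034 and 0.0278 RPKM in controls and 60.1, 180 and 122 in mutants. In bulk libraries fewer cells of a type and less RNA per cell cannot be told apart. Nothing in the labels says that the pools came from separate litters, so p-values measure the spread between these pools.

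The 7 genes spanned a wide range of levels. By mean level in controls the order was Crym (155 ± 33.2 RPKM), Gas1 (144 ± 7.74), Capn6 (106 ± 8), Spock2 (45.8 ± 5.9), Traf1 (5.77 ± 0.488), Dpf3 (2.45 ± 0.37) and Tmem100 (1.8 ± 0.582; SD, n = 3 each). Crym stood at rank 151 and Gas1 at rank 177 of the 13463 tested genes, and Tmem100 at rank 10613. The neighbours Crym and Gas1 overlapped in their libraries, as did Dpf3 and Tmem100, and the other neighbours in this order did not. In mutants Gas1 (112 ± 14.5 RPKM) and Crym (100 ± 6.32) again overlapped. There Tmem100 (3.93 ± 1.03) lay above Dpf3 (1.7 ± 0.492) in every library and overlapped with Traf1 (3.95 ± 0.815; SD, n = 3 each). All 7 passed the expression filter, which is set on the mean over the 6 libraries, and they held between 48 and 17014 reads in a library.

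**Figure D1:**
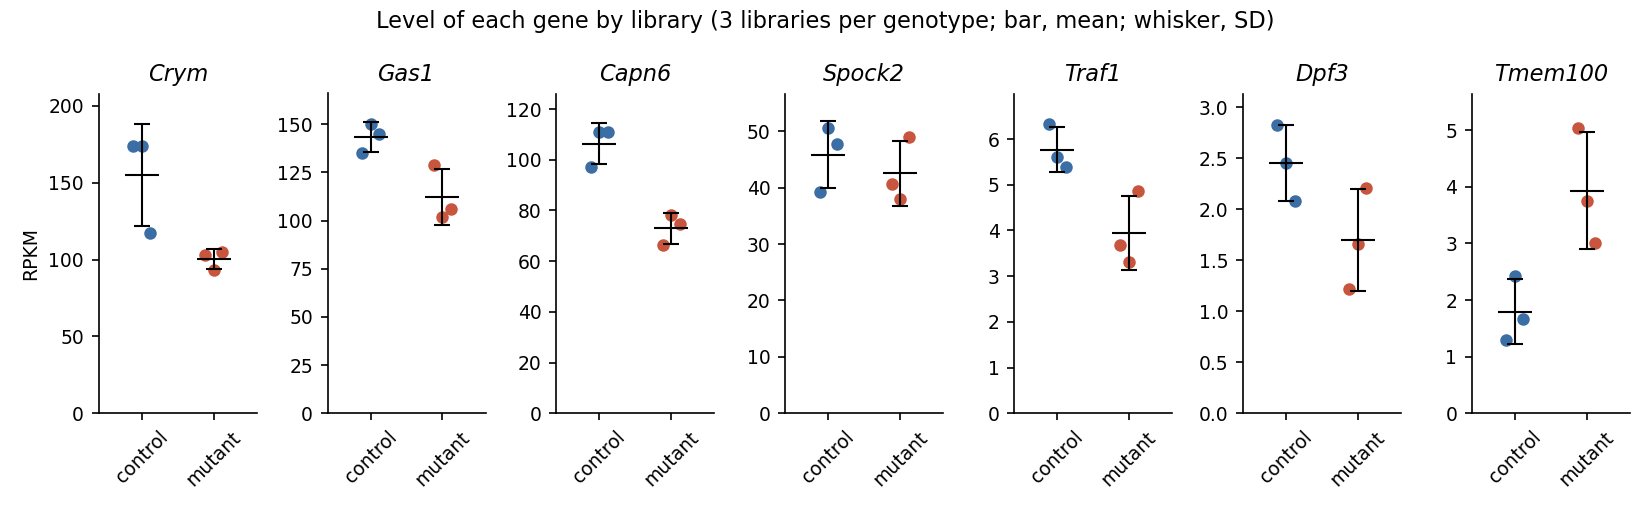
Level in RPKM (vertical axes, each from 0) of the 7 genes in every control and mutant library, with the mean as a bar and the SD as a whisker (n = 3). Crym, Gas1, Capn6 and Traf1 lie lower in every mutant library than in any control, Tmem100 lies higher, and Spock2 and Dpf3 overlap.

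In mutants 1 of the 7 genes was called higher (Tmem100), 1 was called lower (Capn6), and 5 did not pass in limma. Among all tested genes 1.32% were called higher and 1.81% lower. In 5 of the 7 the genotypes did not overlap, 4 with lower and 1 with higher mutant values, against 25.1% of all tested genes without overlap in either direction, 18% lower and 7.06% higher. With voom on recovered reads 3 of the 7 were called, against 5.1% of all tested genes. Because the list was made with this contrast known, nothing is read from these counts. The median log2 fold change of the 7 was -0.44.

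Capn6 encodes an atypical calpain that lacks the active-site cysteine of the proteases of its family and has been described as a stabiliser of microtubules. It lies on the minus strand of chromosome X, 143802236 to 143827412 (mm10). Control replicates 1 to 3 had 97.1, 111 and 111 RPKM, and mutant replicates 1 to 3 had 66.3, 78.1 and 74.6 RPKM. Every mutant library lay below every control, and the change of the means was -31.4%. On the log2 scale Capn6 fell by 0.54 ± 0.129 (SE; 95% interval -0.82 to -0.26; limma adjusted p 0.0449). These values rest on 7127 to 14269 reads per library. The gene is X-linked and the sex mix of the pools differed, and with the level of Y-linked genes as a covariate its value was again -0.54 but did not pass (limma adjusted p 0.108). Scaled by median-of-ratios factors it was -0.42 (limma adjusted p 0.139). It was also -0.42 with depth counted without mitochondrial ribosomal RNA (limma adjusted p 0.12). The call was also lost without control replicate 1 (0.116) or 2 (0.0609) and without mutant replicate 1 (0.154), 2 (0.133) or 3 (0.122).

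The classical calpains and their partners were measured alongside. Of 14 other genes of the calpain family 7 passed the filter, and 0 of these were called in either direction (list median -0.07). Capn2, the catalytic subunit of m-calpain, was at 48.3 RPKM in controls and 46.6 in mutants, which gave -0.05 on the log2 scale (limma adjusted p 0.823). Capns1, the small regulatory subunit, had -0.3 (0.326). The lowest p-values of the list were those of Capn7, a calpain without the penta-EF-hand domain (44.5 ± 1.35 and 35.1 ± 2.59 RPKM; limma adjusted p 0.165), and of Cast, the calpain inhibitor calpastatin (3.47 ± 0.0848 and 4.71 ± 0.389 RPKM; SD, n = 3; 0.19).

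Crym encodes mu-crystallin, a cytosolic protein that binds thyroid hormone and acts as a ketimine reductase. It lies on chromosome 7, 120186380 to 120201989, minus strand. Control replicates 1 to 3 had 174, 174 and 117 RPKM, and mutant replicates 1 to 3 had 103, 93.1 and 105 RPKM. Control replicate 3 stood nearer to the mutants than to the other controls, but all mutant libraries lay below it. That library had the highest Six2 level of the 6. The log2 difference of Crym, -0.6 ± 0.166 (SE; 95% interval -0.96 to -0.24), did not pass (limma adjusted p 0.0821). Without control replicate 3 it was -0.8 and passed (0.00179), in a fit that called 1083 of all tested genes against 422 with that library. Crym also passed with voom on recovered reads (-0.61, adjusted p 0.0219), and in no other of the 19 alternatives. It was -0.48 with depth counted without mitochondrial ribosomal RNA (limma adjusted p 0.137) and -0.44 with quantile normalization (0.0803). The call thus turned on control replicate 3 and on the test.

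Other genes that handle thyroid hormone were read beside Crym. Of 12 such genes 7 were tested and 0 were called (list median -0.07). Thra, which encodes a thyroid hormone receptor, was at 3.07 and 2.74 RPKM, and Thrb was at 0.549 and 0.0931 RPKM and lay under the filter.

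Traf1 encodes an adaptor that joins TRAF2 and cellular inhibitors of apoptosis downstream of tumour necrosis factor receptors. It lies on chromosome 2, 34941750 to 34961812, minus strand. Its level was 6.32, 5.61 and 5.38 RPKM in controls and 3.68, 3.3 and 4.86 RPKM in mutants, replicates 1 to 3 in each. The genotypes did not overlap, and mutant replicate 3 came close to the lowest control. This gave a log2 fold change of -0.51 ± 0.169 (SE; 95% interval -0.88 to -0.14; limma adjusted p 0.139). Reads ran from 213 to 471 per library. The length worked out for the Traf1 entry was 2325 bases, and the 3′ UTR that holds its printed matches alone had 2123. Part of that 3′ UTR may thus not have been counted.

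Of 20 other genes of TRAF and NF-kB signalling 19 were tested and 0 were called. Their list median was -0.32, against -0.125 over all tested genes. Traf4 (5.43 ± 0.382 and 3.81 ± 0.301 RPKM; limma adjusted p 0.128) and Traf5 (2.96 ± 0.487 and 1.87 ± 0.399 RPKM; SD, n = 3; 0.15), adaptors of the same family, had the lowest p-values. Traf2, the main partner of Traf1, had a value of -0.34 (0.345). Leukocytes also express Traf1. The summed level of 14 macrophage and leukocyte markers was 6.28 to 10.5 RPKM in controls and 17.4 to 19.9 RPKM in mutants, and the part of such cells in the Traf1 level was not tested.

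Dpf3 encodes a subunit of the BAF chromatin remodelling complex whose PHD fingers read acetylated histone tails. It lies on chromosome 12, 83213751 to 83487736, minus strand. Its level was 2.82, 2.45 and 2.08 RPKM in controls and 1.22, 1.66 and 2.21 RPKM in mutants, replicates 1 to 3 in each. Mutant replicate 3 lay inside the control range. The difference on the log2 scale was -0.44 ± 0.205 (SE; limma adjusted p 0.259). Dpf3 rested on few reads, 76 to 115 in controls and 48 to 79 in mutants. The length worked out for its entry was 1298 bases, while the transcript that carries the printed seed match belongs to a longer form with a 3′ UTR of 1996 bases, so reads of that 3′ UTR may not have been counted.

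Of 21 other subunits of the BAF complex 19 were tested and 0 were called. Their list median was -0.22, against -0.125 over all tested genes. Dpf2, the close relative of Dpf3, stood at -0.35 on the log2 scale (limma adjusted p 0.212), and Dpf1, the neuronal relative, lay under the filter at 0.216 and 0.0477 RPKM. Bcl7a (15.7 ± 1.54 and 10.6 ± 1.12 RPKM; limma adjusted p 0.0617) and Smarcd2 (6.03 ± 0.857 and 3.83 ± 0.428 RPKM; SD, n = 3; 0.0803) had the lowest p-values of the list.

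Spock2 encodes testican-2, a secreted proteoglycan of the extracellular matrix. It lies on chromosome 10, 60106257 to 60135198, plus strand. Its level was 39.3, 50.6 and 47.7 RPKM in controls and 40.6, 38 and 48.9 RPKM in mutants, replicates 1 to 3 in each. The genotypes overlapped over nearly their whole range. The length worked out for the Spock2 entry was 3916 bases, and the 3′ UTR searched for matches alone had 3717. Part of that 3′ UTR may thus not have been counted. On the log2 scale Spock2 had -0.11 ± 0.145 (SE; 95% interval -0.43 to 0.21; limma adjusted p 0.688), and its sign turned under median-of-ratios factors (0.02) and quantile normalization (0.07). Of 7 relatives in the SPARC and testican family 5 were tested and 0 were called. Sparc itself, a matrix protein also made by interstitial cells, was at 101 ± 26.3 and 72.9 ± 11.9 RPKM (limma adjusted p 0.224) and Fstl1 at 73.4 ± 28 and 84.5 ± 4.12 RPKM (SD, n = 3; 0.498). Spock1 and Spock3, the other testicans, were near 0.5 RPKM or below in both genotypes.

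Gas1 encodes a surface protein held by a lipid anchor that serves as a co-receptor for Hedgehog ligands and is structurally related to the receptors of the GDNF family. It lies on chromosome 13, 60174405 to 60177535, minus strand. Its level was 135, 150 and 145 RPKM in controls and 129, 102 and 106 RPKM in mutants, replicates 1 to 3 in each. The genotypes did not overlap, with mutant replicate 1 close to control replicate 1. The log2 difference was -0.36 ± 0.136 (SE; 95% interval -0.66 to -0.07; limma adjusted p 0.181), and -0.15 with quantile normalization. Of the 31-base words of Gas1, 18.15% also occur in Gm48488, a non-coding gene that overlaps it on the opposite strand, and without a stated strand setting reads of this pair cannot be told apart.

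Of 15 genes of Hedgehog and GDNF reception 12 were tested, 0 were called higher and 1 was called lower, against 1.81% of all tested genes called lower. Gfra1, the receptor that binds GDNF, was at 27.2, 27.8 and 32.4 RPKM in controls and 16.3, 16.4 and 18 RPKM in mutants. The genotypes did not overlap, and Gfra1 fell by 0.76 ± 0.129 (SE) on the log2 scale (limma adjusted p 0.00775, and 0.0565 without mutant replicate 2). The Hedgehog co-receptors related in function to Gas1 did not pass: Boc was at 4.2 ± 0.2 and 5.69 ± 1.21 RPKM (SD, n = 3; limma adjusted p 0.242) and Cdon stood at -0.04 (0.887). Ptch1 and Gli1, which are targets of the pathway, had -0.13 (0.581) and 0.03 (0.948).

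Tmem100 encodes a small transmembrane protein that is best known in endothelium, where signalling by BMP9 and BMP10 through the receptor ALK1 induces it. It lies on chromosome 11, 90030348 to 90036508, plus strand. Control replicates 1 to 3 had 1.29, 2.43 and 1.67 RPKM, and mutant replicates 1 to 3 had 5.04, 3.75 and 3 RPKM. All mutant libraries lay above all controls, and the spread was wide in both genotypes. The means differed 2.19-fold and on the log2 scale Tmem100 rose by 0.95 ± 0.226 (SE; 95% interval 0.46 to 1.44; limma adjusted p 0.0441). These values rest on 67, 155 and 83 reads in controls and 269, 184 and 146 in mutants. Median-of-ratios scaling (1.06) and voom on recovered reads (1.13, adjusted p 0.0252) kept the call. Quantile normalization (limma adjusted p 0.0604), a fit without the mean-variance trend (0.0583), no filter on low values (0.18) and the replicate block (0.0538) ended it. Leaving out 1 of 3 libraries ended the call: control replicate 1 (limma adjusted p 0.163), or replicate 1 (0.18) or 2 (0.194) of the mutants.

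Because endothelium makes Tmem100, its markers were read beside this rise. The summed level of 13 endothelial markers was 4.16 to 7.22 RPKM in controls and 6.75 to 7.43 RPKM in mutants, and 0 of the 4 that passed the filter were called. Of the 13 markers 7 were under 0.5 RPKM in every library and 0 were at 0 in all. Pecam1, an adhesion protein of endothelial junctions, was at 0.339, 0.31 and 0.161 RPKM in controls and 0.37, 0.25 and 0.307 in mutants. Kdr, a receptor for VEGF that lay under the filter, was at 0.274, 0.218 and 0.189 RPKM in controls and 0.369, 0.416 and 0.478 in mutants, without overlap. Emcn, which encodes endomucin, was at 2, 3.33 and 1.66 RPKM and at 3.14, 2.98 and 1.64 RPKM, and it overlapped (limma adjusted p 0.789). The part of endothelial cells in the Tmem100 level was not tested. Egfl7 (limma adjusted p 0.674) and Plvap (0.573) had the lowest p-values of the tested markers. Of 14 genes of BMP9 and ALK1 signalling 10 were tested and 0 were called (list median -0.05). Acvrl1, which encodes ALK1, lay under the filter at 0.164 and 0.243 RPKM. Id1, a target of BMP signalling, was at 35.6 and 39.6 RPKM a log2 difference of 0.17 (limma adjusted p 0.527). The lowest p-values were those of Smad9 (2.85 ± 0.288 and 4.15 ± 0.453 RPKM; SD, n = 3; 0.148) and Smad1 (0.328).

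Other cap mesenchyme genes that are not transcription factors gave the setting for the 7. Of 16 such genes 14 passed the filter, 0 were called higher and 2 were called lower, against 1.81% of all tested genes called lower, and the list median was -0.23. Shisa3 and Shisa2 were those called. They encode relatives of a protein first described in Xenopus as holding back FGF and Wnt receptors in the endoplasmic reticulum. Shisa3 was at 225, 219 and 218 RPKM in controls and 96.7, 85.4 and 92.9 RPKM in mutants, a tight separation, and its control level lay above that of any of the 7. On the log2 scale it fell by 1.27 ± 0.124 (SE; limma adjusted p 0.000178), and it passed under all 19 alternatives that were run. Shisa2 was at 55.3, 54.5 and 49.7 RPKM and at 37.1, 35.2 and 31.5 RPKM, without overlap. Its log2 fold change was -0.61 (limma adjusted p 0.0221), and the call held in 9 of 19 alternatives. It was lost without control replicate 1 (0.125) and without mutant replicate 1 (0.0513), 2 (0.102) or 3 (0.101). Shisa2 lies on chromosome 14, which also holds the targeted cluster, and Shisa3 and the 7 genes do not.

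Ligands and surface proteins of the same cells varied in sign and did not pass. Robo2, the Slit receptor, was at 88.6, 65.4 and 104 RPKM in controls and 55.8, 52.1 and 60.8 in mutants (log2 fold change -0.59, limma adjusted p 0.0912). Pla2g7, a secreted phospholipase, had -0.54 (0.071) and the ligand Fgf20 had -0.51 (0.0984). Ncam1, an adhesion protein, had 0.44 (0.101) and the integrin subunit Itga8 had 0.34 (0.194). Gdnf, the ligand that draws out the ureteric bud, had -0.3 (0.246), and Cdh11, a cadherin at 199 and 194 RPKM, had -0.04 (0.874).

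**Figure D2:**
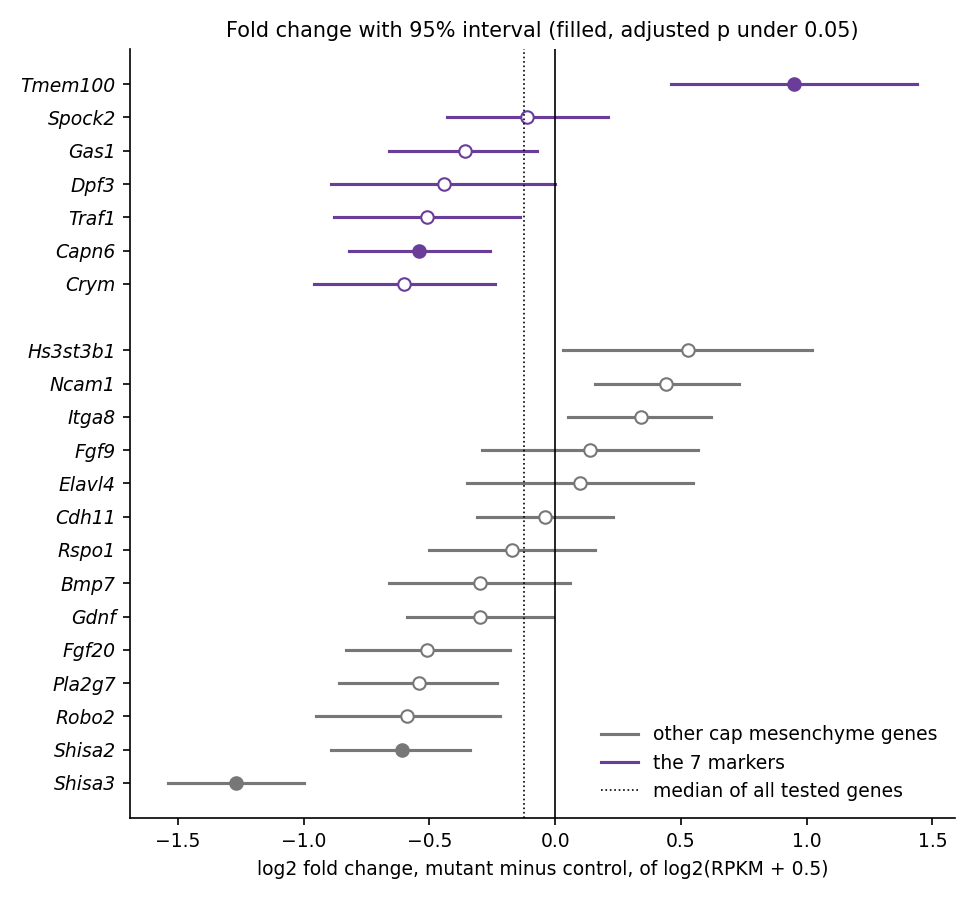
Log2 fold change (horizontal axis, mutant minus control) with its 95% interval for the 7 genes and for 14 other cap mesenchyme genes that are not transcription factors. Filled points passed in limma (Tmem100 higher; Capn6, Shisa2 and Shisa3 lower), and the dotted line is the median of all tested genes at -0.125.

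Among the transcription regulators of the same cells 1 of 13 tested genes was called, Meox1, which was lower (limma adjusted p 0.00271), against 1.81% of all tested genes called lower. The list median was -0.17. Mycn was the next lowest in p, at 0.57 on the log2 scale (0.0977). When each library was centred on the mean level of these 13 genes, Tmem100 stood at 1.11 (limma adjusted p 0.0478) and Capn6 had -0.39 (0.278).

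Markers of cells that could accompany the sort were read for all 7 genes. Of 16 renal vesicle genes 14 were tested and 2 were called higher, Cdh6 (limma adjusted p 0.0146) and Emx2 (0.0342), against 1.32% of all tested genes. Log2 fold changes were above 0 in 13 of the 14, and the summed level was 155 to 177 RPKM in controls and 165 to 201 in mutants. None of 14 interstitial genes was called (lowest limma adjusted p 0.217, Col1a2, then Dcn at 0.22), all 14 had values above 0, and their summed level was 82.9 to 236 RPKM in controls and 160 to 277 in mutants. Control replicate 3 held the lowest interstitial sum. Cdh6 was no longer called without mutant replicate 1 (limma adjusted p 0.0776) or 3 (0.0576), nor Emx2 without control replicate 1 (0.134) or mutant replicate 1 (0.106), 2 (0.161) or 3 (0.103). Of 6 tested macrophage markers 3 were called higher, against 1.32% of all tested genes: Fcer1g (limma adjusted p 0.00264), Ctss (0.0046) and Tyrobp (0.0491). Their means were 0.73, 0.208 and 0.433 RPKM in controls and 2.41, 1.57 and 1.54 in mutants. Ctss and Tyrobp lay under 0.5 RPKM in controls and passed the filter through their mutant values, so their calls are a description only. Tyrobp was at 0 RPKM in control replicate 3. Fcer1g passed under all 19 alternatives. Ctss and Tyrobp fell under the filter at a mean of 1 RPKM, and of the other 18 alternatives Ctss passed in 18 and Tyrobp in 7. The Tyrobp call was lost with voom (adjusted p 0.0527) and without mutant replicate 1 (limma adjusted p 0.142), 2 (0.236) or 3 (0.129). Ureteric bud markers summed to 30.5 to 37 RPKM in controls and 31.1 to 45.4 in mutants, and 0 of 7 tested were called (Tfcp2l1 0.0905, Epcam 0.157). Hoxb7 alone made up 26.3, 20.8 and 24.4 RPKM of these sums in controls and 19.7, 19.2 and 24.9 in mutants. The median log2 fold change of the tested bud markers was 0.58, with 4 above 0 and 3 below. In each of these 4 lists 0 markers were at 0 in all libraries. The part of these cells in the levels of the 7 genes was not tested. Because the marker lists were chosen with earlier results of these data known, nothing is read from how many markers were called or lay above 0.

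**Figure D3:**
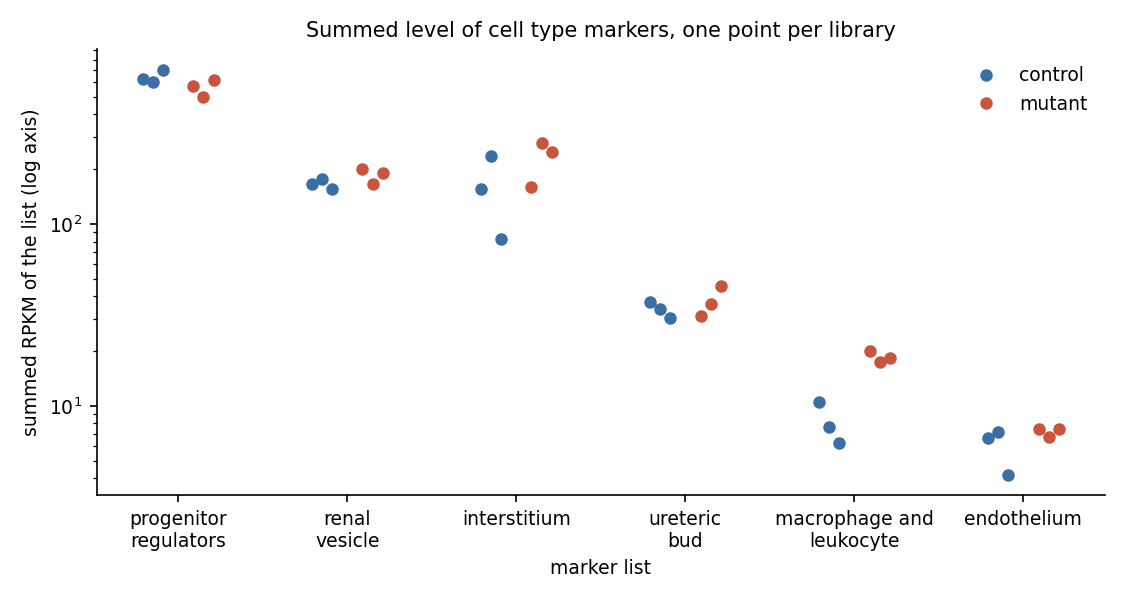
Summed RPKM (vertical log axis) of 6 marker lists, 1 point per library, controls and mutants side by side. The macrophage and leukocyte sum is higher in every mutant library (17.4 to 19.9 RPKM) than in any control (6.28 to 10.5), while the progenitor regulator sums overlap.

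The genes whose pattern over the 6 libraries was most like each of the 7 were sought among 10980 named genes whose mean reached 1 RPKM, by Pearson's r of log2(RPKM + 0.5). Values of r come from only 6 libraries that share genotype and depth and are given as a description. Only the highest 3 among the 10980 are given for each of the 7, so high values show nothing by themselves. For Capn6 the nearest genes were Stn1 (r = 0.987), Cd44 (0.984) and Ncdn (0.982). Cd44, which encodes a hyaluronan receptor, was the only 1 of the 21 nearest genes to be called, against 3.13% of all tested genes. It had 8.04 ± 1.21 RPKM in controls and fell to 3.6 ± 0.231 in mutants (SD, n = 3; -1.05 on the log2 scale, limma adjusted p 0.00356). Crym was nearest to Rabgef1 (0.999), Zfp623 (0.997) and Phf23 (0.996). Tmem100 was nearest to Poglut3 (0.997), Map2 (0.984) and Gng12 (0.975), and Traf1 to Hemk1 (0.998), Atp13a2 (0.996) and Kdm5c (0.995). For Dpf3 the nearest were Pdlim7 (0.991), Sars2 (0.99) and Ppp1r9b (0.987), for Spock2 they were Bud13 (0.992) and Nt5c3b (0.986), and for Gas1 Cdk2 (0.997), Taf2 (0.994) and Slc25a16 (0.992). No gene stood among the nearest 3 of more than 1 of the 7.

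Across the 19 alternatives the direction of 6 of the 7 genes was kept, and that of Spock2 turned in 4. Log2 fold changes ran from -0.6 to -0.36 for Capn6, from -0.8 to -0.44 for Crym and from 0.78 to 1.14 for Tmem100. It ran from -0.65 to -0.35 for Traf1, from -0.61 to -0.28 for Dpf3 and from -0.47 to -0.15 for Gas1. Capn6 passed in 6 of the 19, Tmem100 in 12 and Crym in 2, and Traf1, Dpf3, Spock2 and Gas1 in 0.

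**Figure D4:**
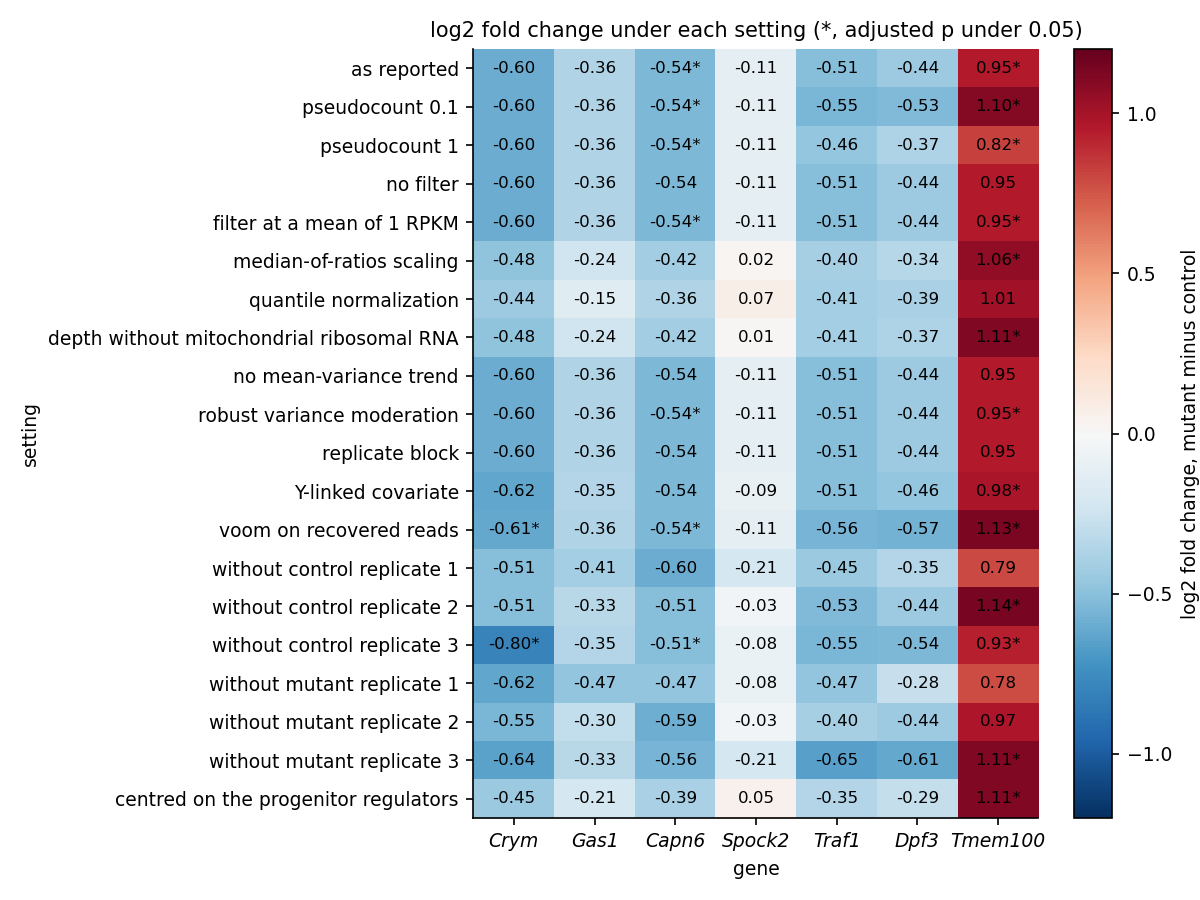
Log2 fold change (colour and number, mutant minus control) of the 7 genes (columns) as reported and under 19 alternatives (lines), with a star where limma's adjusted p was under 0.05. Tmem100 stays between 0.78 and 1.14, Capn6 between -0.6 and -0.36, and Spock2 changes sign.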

How the data were processed

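RPKM values for 6 libraries and 27179 entries, keyed by Entrez Gene number, were deposited by the authors as 1 table. Per the labels' protocols, the Ovation V2 kit amplified total RNA for paired-end sequencing. Per the submitters' processing notes, mm10 was the build and the tools listed include FastQC and limma; column names carry the word subread, per the file headers. Counter, annotation and strand setting: not given in the sources used here. Symbols and positions came from RefSeq (GRCm38.p6), matched for 25275 entries.

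The steps between low RPKM values gave each library's depth, each entry's length and the reads per entry. The log2(RPKM + 0.5) values of mutants and controls went into limma 3.58.1 (R 4.3.3), keeping genes whose mean over the 6 libraries reached 0.5 RPKM, with a mean-variance trend and two-sided Benjamini-Hochberg adjustment over all 13463 tested genes at 0.05. The fit and the recovery of reads were tested on simulated data. The 19 alternatives covered pseudocount, filter, scaling, variance model, replicate block, sex covariate, test and each library left out. The members and gene lists were chosen with earlier results of these data known. Named genes were the 7, the called genes and the 2 of lowest p in each list, the 3 nearest patterns, and checks; a few genes under this rule are not reported here, and others named are list members chosen for their role after values were seen. Shared 31-base words and seed matches were counted with Python 3.11.15 in GENCODE transcripts.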

Additional observations from a re-analysis of the deposited data

How the results depend on the processing

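Of the 7 genes 2 were called, and this count was 0 with no filter on low values, with quantile normalization, without the mean-variance trend and with the replicate number as a block. It was 1 with median-of-ratios scaling, with depth without mitochondrial ribosomal RNA, with a Y-linked covariate and with libraries centred on the progenitor regulators, an alternative chosen after seeing the data. Leaving out 1 library at a time gave 0 to 3. Over all genes 422 were called; 143 were with no filter, 264 with the Y-linked covariate, 686 (5.1% of those tested) with voom on recovered reads, and 148 to 1083 without 1 library. With the replicate block 393 were called. Same-numbered libraries deviated together with correlations of 0.0526, 0.157 and 0.153. Libraries of unlike number were not compared, so these values cannot show whether the numbers mark pairs. The numbers were not taken as pairs because they are not said to pair litters. The split of 178 higher and 244 lower became 268 and 149 with depth without mitochondrial ribosomal RNA. It became 282 and 154 with median-of-ratios scaling, which moved the median of all genes from -0.125 to -0.0118. Spock2 turned to 0.02 with that scaling, 0.07 with quantile normalization, 0.01 with depth without mitochondrial ribosomal RNA and 0.05 with libraries centred on the progenitor regulators. Of genes outside the 7, leaving out 1 library at a time gave -0.02 to 0.55 for Fstl1 (-0.02 without control replicate 3) and, for the Y-linked Eif2s3y and Uty, -1.01 to 0.22 (0.00, 0.19 and 0.22 without control replicate 2, control replicate 3 and mutant replicate 2) and -1.10 to 0.02 (0.02 without mutant replicate 2). Counting only seed matches of 8 bases left 0 of the 7 genes, and matches of 6 bases or more gave 6, against 68.5% of tested genes with a 3′ UTR. The causes were not tested. Counting error weighs most on Dpf3 and Tmem100, whose lowest libraries held 48 and 67 reads.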
